A study of Mus musculus with 4 samples.

Results

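The 10 genes described here encode S100 proteins, small calcium sensors with a pair of EF-hand loops each: S100a1, S100a4, S100a6, S100a8, S100a9, S100a10, S100a11, S100a13, S100a16 and S100b. They were chosen by name, as the non-control probes whose gene name is 1 of these symbols, among 50090 gene names on the array, and each has 1 probe. The cells were C3H10T1/2, a mouse embryo fibroblast line that stops growing on contact and is used to score chemical transformation. Control cells (2 arrays) were kept in culture for 6 weeks, and whether they were given a vehicle is not stated in the labels. The 3MC+TPA group (2 arrays) held RNA of the same line given 3-methylcholanthrene (3MC), a polycyclic aromatic hydrocarbon, at 2.5 µg/ml for 2 days, then after some days in fresh medium TPA, the phorbol ester 12-O-tetradecanoylphorbol-13-acetate, at 100 ng/ml through 2 weeks, and grown in normal medium for 4 weeks more. The study calls the exposed cells transformed. Flasks, not picked foci, are the source of RNA that the labels describe, and the labels do not say whether replicate arrays had flasks of their own. The p-values therefore take in only how far these arrays spread, and that spread may be technical.

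S100 proteins form dimers that open on binding calcium and then grip a partner protein. S100A4 binds non-muscle myosin and is a marker of fibroblasts and of metastatic cells, S100A10 joins annexin A2 without needing calcium and helps to gather plasminogen at the cell surface, and S100A8 pairs with S100A9 as calprotectin, a product of neutrophils and of stressed keratinocytes. Outside the cell, several S100 proteins are ligands of the receptors RAGE and TLR4. In the mouse most S100 genes lie together on chromosome 3, at the edges of a cluster of epidermal differentiation genes.

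Of the 10 genes, 9 could be tested, 1 was called higher, 1 was called lower and 7 did not pass. S100a1 rose 3.88-fold and S100a8 was at least 3.87-fold lower by the mean of control arrays that stood far apart, while S100a9 was not well above background on any array. All values below are the log2 signal of the probe relative to the 75th percentile of its array. Tested genes had a probe that the scanner software flagged as well above background on both arrays of at least 1 group. A call is an adjusted p under 0.05 (limma, Benjamini-Hochberg over 24980 gene names tested). Over all of these, 15.8% were called, 7.3% higher and 8.47% lower, beside 2 called genes of 9 here. An unadjusted p under 0.05 was found for 4 of the 9 genes (S100a1, S100a4, S100a8 and S100a11), and for 33.7% of all gene names tested. The median log2 change was 0.04 over the 9 S100 genes and -0.01 over all gene names tested. The arrays of the groups did not overlap for 5 of the 9 genes, and for 63.9% of all gene names tested. Among the 5 is S100a8, which was tested only because its control arrays were well above background.

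The 2 S100 probes that carry a call, and that of S100a13, the gene beside S100a1, read as follows. They are the deposited 60-base probes, and capitals mark the longest run of bases that each shares with the probe of another of the 10 genes.
S100a1 probe: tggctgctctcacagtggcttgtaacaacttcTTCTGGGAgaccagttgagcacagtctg
S100a8 probe: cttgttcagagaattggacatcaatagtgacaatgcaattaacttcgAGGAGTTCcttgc
S100a13 probe: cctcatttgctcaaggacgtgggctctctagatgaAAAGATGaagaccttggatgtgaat
These runs are 8 bases for S100a1 (with S100a9), 8 for S100a8 (with S100b) and 7 for S100a13 (with S100a16). The longest run between any of the 10 probes was 12 bases, between S100a6 and S100b. Only the S100a11 probe shared 20 or more bases with a probe of another gene name on the array.

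**Figure D1:**
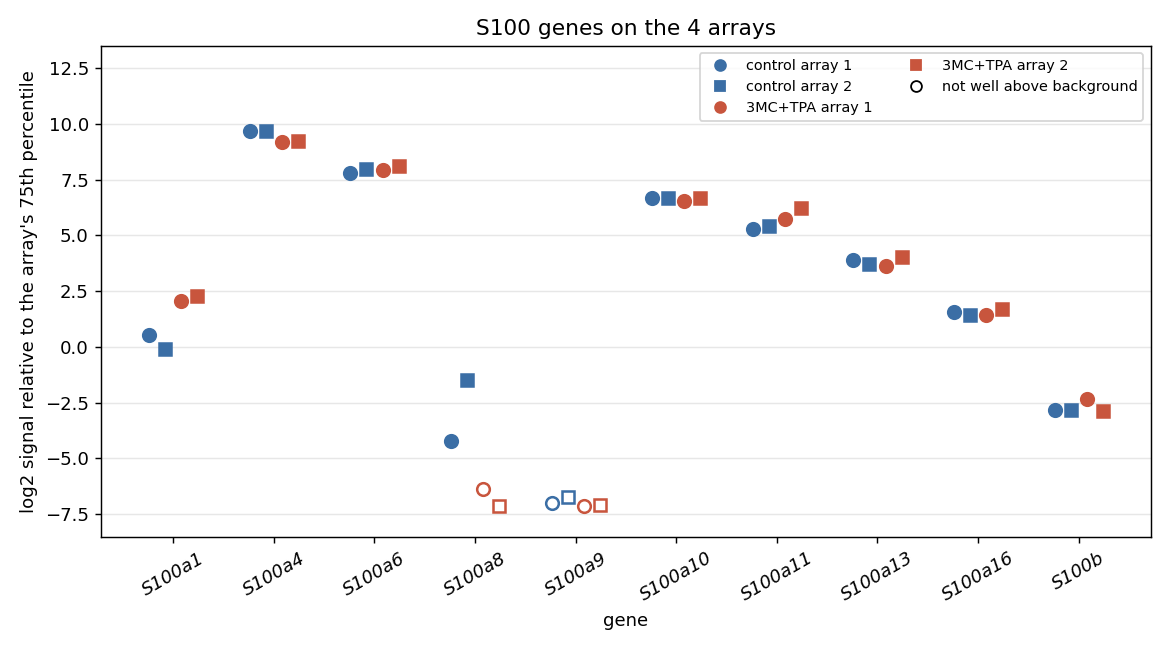
Log2 signal of each S100 probe relative to the 75th percentile of its array (y axis) on the 4 arrays; blue points are control and red points 3MC+TPA arrays, and open points were not well above background. S100a1 lies higher on both 3MC+TPA arrays, S100a8 is measured on the control arrays and not on the others, and S100a9 is open throughout; heights of different genes come from different probes and are not to be compared.

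S100a1, a calcium sensor best known from heart and skeletal muscle, where it acts on calcium release channels, rose in the exposed cells. It stood at 0.55 and -0.08 on control arrays 1 and 2, and at 2.08 and 2.30 on 3MC+TPA arrays 1 and 2. Both exposed arrays lay above both control arrays, and the gap between groups was wider than that within either. The log2 change was 1.96 ± 0.25 (SE), or 3.88-fold, with a 95% interval of 1.31 to 2.61 (limma adjusted p = 0.011). In unscaled scanner signal it went from 786 and 557 to 2954 and 3665. Its call ended in 4 of 15 other ways of processing, while the log2 change stayed between 1.64 and 2.31 in all of them. Without 3MC+TPA array 1 the adjusted p was 0.058, and without 3MC+TPA array 2 it was 0.074.

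S100a13, which takes part in the export of FGF1 and interleukin 1 alpha, proteins that lack a signal peptide, begins beside S100a1 and is read in the opposite direction. The 5′ ends of both genes lie 104 bases apart in the RefSeq table of promoters (build GRCm38.p6), S100a1 on the minus strand and S100a13 on the plus strand. The stretch between them, chr3:90514331-90514434 on the plus strand, is shown because it lies upstream of both genes.
S100a1-S100a13 interval: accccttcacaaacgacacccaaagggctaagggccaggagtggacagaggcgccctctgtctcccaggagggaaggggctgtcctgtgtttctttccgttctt
S100a13 stood at 3.90 and 3.71 in control and 3.65 and 4.02 in 3MC+TPA cells, so that the exposed arrays lay on either side of the control arrays. Its log2 change was 0.03 ± 0.20 (SE), with a 95% interval of -0.47 to 0.53 (adjusted p = 0.94), which does not reach the interval of S100a1. Relative to their own control means, the exposed arrays were at 1.85 and 2.06 for S100a1 and at -0.16 and 0.22 for S100a13. The difference between the genes was not tested.

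S100a8 and S100a9 encode the subunits of calprotectin, and only S100a8 gave a measured level. S100a8 stood at -4.23 and -1.47 on control arrays 1 and 2, both well above background, and at -6.35 and -7.11 in 3MC+TPA cells, neither well above background. The exposed arrays lay below the control arrays, but the control arrays themselves were 6.77-fold apart. In scanner signal, with the scanner's own error, the values were 28.6 ± 5.16 and 213 ± 21.7 in control and 8.56 ± 5.17 and 5.38 ± 5.40 in 3MC+TPA cells. The fall was at least 3.87-fold, setting the control mean against the dimmest well-measured signal of each 3MC+TPA array. This limit rests on which control array is used: it was 1.49-fold from control array 1 alone and 10.1-fold from control array 2 alone. Leaving out control array 1 gave a fitted log2 change of -5.26, and leaving out control array 2 gave -2.50. S100a8 was tested only because its control arrays were well above background, and such a filter favours a lower exposed value. The fit to the signals themselves gave -3.88 ± 0.91 (SE, limma adjusted p = 0.049), where the exposed side holds no measured level. It passed narrowly: the adjusted p was 0.053 in the authors' deposited values, 0.14 without 3MC+TPA array 1 and 0.20 without 3MC+TPA array 2, and the call held in 6 of 14 alternatives. Of 23826 gene names with both control arrays well above background, 19 had a gap between these arrays as wide as that of S100a8, or 0.0797%.

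S100a9 was at -7.01 and -6.73 in control and -7.12 and -7.11 in 3MC+TPA cells. None of these signals was well above background, and no fold or test is given. Markers of myeloid cells, the main source of calprotectin in the body, were read beside them. Of 15, 6 were not well above background on any array (Ptprc, the CD45 gene, Itgam, Adgre1, Ngp, Ltf and Tyrobp). As many, 6, were well above background on all 4 arrays (Cd68, Lyz2, Camp, Ly6g, Cd14 and Fcer1g). The summed signal of the 15, in multiples of the array's 75th percentile, was 4.26 and 5.30 in control and 4.94 and 5.84 in 3MC+TPA cells. Most of it was Cd14, and without Cd14 the sum over 14 genes was 0.960 and 0.814 in control and 1.35 and 1.46 in 3MC+TPA cells. Of 7 tested, Camp, the gene of an antimicrobial peptide, was called higher (8.30-fold) and Ly6g, a neutrophil surface marker, lower (3.02-fold, adjusted p = 0.026 and 0.0074). Camp stood at -2.99 and -4.70 on control arrays 1 and 2, which differ, and at -0.91 and -0.67 in 3MC+TPA cells. The higher sum without Cd14 in 3MC+TPA cells was largely the signal of Camp. In bulk RNA, fewer cells of a type and less RNA per cell cannot be told apart.

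The 250 bases upstream of S100a8, chr3:90668821-90669070 on the plus strand of GRCm38.p6 (RefSeq), are shown since S100a8 was the 1 member called lower. Capitals mark TATAAA.
S100a8 upstream: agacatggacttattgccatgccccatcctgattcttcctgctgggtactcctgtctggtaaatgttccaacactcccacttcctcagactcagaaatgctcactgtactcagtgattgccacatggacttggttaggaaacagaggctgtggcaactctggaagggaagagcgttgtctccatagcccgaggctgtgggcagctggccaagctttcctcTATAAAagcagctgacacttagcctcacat
Windows from 250 bases before to 50 after the annotated start were searched on both strands for 3 motifs: TGANTCA, the AP-1 or phorbol ester response element, TNGCGTG, the core that the aryl hydrocarbon receptor binds, and TATAAA. Of the 10 genes 9 have such a window, and S100a10 has none in the table. These are 10 windows, as S100a16 has more than 1. TATAAA was found in 3 of the 10, those of S100a4, S100a8 and S100a9, and in 13.6% of all 32851 windows. In S100a9 it lies at the annotated start. TGANTCA was found in 2 of the 10, of S100a11 and S100a16, against 7.81% of all windows. TNGCGTG was found in none of them, against 5.07%. A match describes the letters and not a bound site.

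S100a11, which binds annexin A1 and takes part in membrane repair and keratinocyte growth arrest, carried TGANTCA 2 times. The 250 bases before its start, chr3:93520246-93520495 on the plus strand of GRCm38.p6 (RefSeq), are printed with these matches in capitals.
S100a11 upstream: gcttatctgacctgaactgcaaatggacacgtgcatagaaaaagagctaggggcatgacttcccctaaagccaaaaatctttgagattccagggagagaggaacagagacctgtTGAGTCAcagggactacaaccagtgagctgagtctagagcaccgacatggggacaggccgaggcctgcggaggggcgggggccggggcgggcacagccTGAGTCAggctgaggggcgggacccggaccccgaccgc
On the arrays S100a11 stood at 5.29 and 5.44 in control and 5.76 and 6.23 in 3MC+TPA cells. Both exposed arrays were higher, and they were further from each other than the control arrays were. The log2 change of 0.63 ± 0.21 (SE) had a 95% interval of 0.084 to 1.18 but did not pass over all gene names (adjusted p = 0.11), and it passed in 2 of 15 alternatives. A probe named LOC670046 shares 46 bases with that of S100a11 and gave 0.61 ± 0.24 (SE, adjusted p = 0.15). The probe of Gm5068, the S100a11 pseudogene S100a11-ps, shares no run longer than 15 bases with it and gave 0.66 ± 0.25 (SE, adjusted p = 0.14). Signal of S100a11 and of its near-copies may not be separable on this array.

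**Figure D2:**
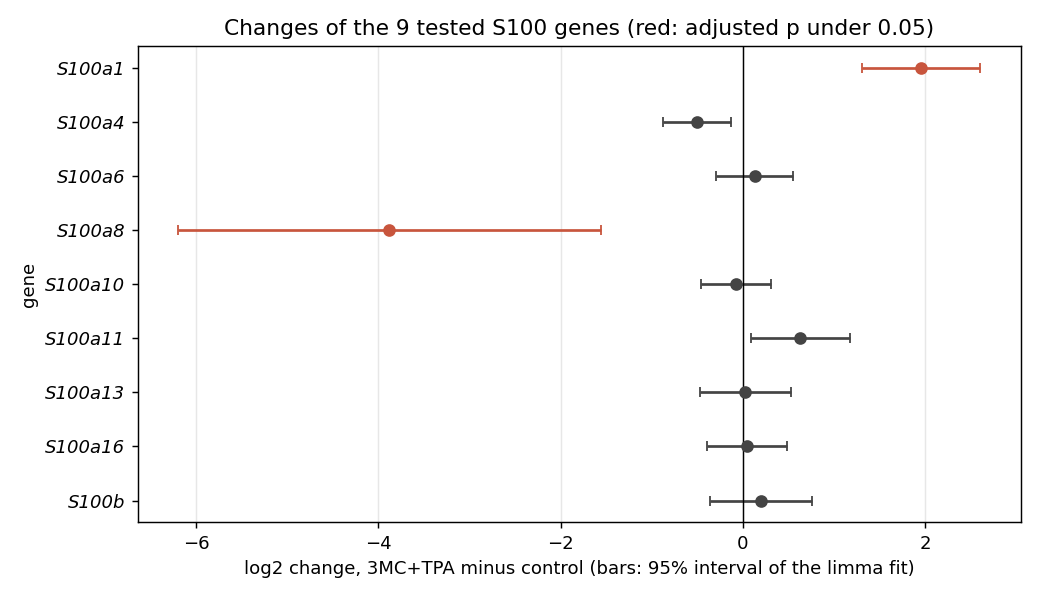
Log2 change of the 9 tested S100 genes, 3MC+TPA minus control (x axis), with the 95% interval of the limma fit; red genes have an adjusted p under 0.05. S100a1 lies at 1.96 and S100a8 at -3.88, the latter with the widest interval and with no measured level in 3MC+TPA cells, and the other 7 genes lie between -0.50 and 0.63.

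S100a4, the fibroblast and metastasis-associated S100 protein, was close to the threshold from the other side. Control arrays read 9.70 and 9.71 and 3MC+TPA arrays 9.19 and 9.22, with no saturated spot. The arrays of each group almost coincided, and the groups did not overlap. The log2 change was -0.50 ± 0.15 (SE), or 1.42-fold, with a 95% interval of -0.88 to -0.13, and did not pass (adjusted p = 0.082). Its size follows the scaling: the log2 change was -0.14 without scaling between arrays and -0.16 after quantile normalisation. It passed with an intensity trend in the fit (adjusted p = 0.0060) and with normexp background correction (adjusted p = 0.029).

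S100a6, or calcyclin, a growth-associated sensor that binds the ubiquitin ligase adaptor CacyBP, stood at 7.79 and 7.98 in control and 7.93 and 8.10 in 3MC+TPA cells. The ranges of the groups overlapped, and the log2 change was 0.13 ± 0.17 (SE, 95% interval -0.29 to 0.56, adjusted p = 0.63). S100a10, the annexin A2 partner, stood at 6.67 and 6.69 in control and 6.55 and 6.66 in 3MC+TPA cells. Its log2 change of -0.07 ± 0.15 (SE, 95% interval -0.46 to 0.31, adjusted p = 0.77) turned positive under 2 scalings, with 0.049 after quantile normalisation and 0.28 without scaling. S100a16, a widely expressed member, stood at 1.59 and 1.45 in control and 1.44 and 1.69 in 3MC+TPA cells (log2 change 0.04 ± 0.17, SE, 95% interval -0.40 to 0.48, adjusted p = 0.89). S100b, the glial and melanocyte member, was dim but well above background on all 4 arrays, at -2.81 and -2.81 in control and -2.35 and -2.88 in 3MC+TPA cells. The exposed arrays lay on either side of the control arrays, and the log2 change was 0.20 ± 0.22 (SE, 95% interval -0.36 to 0.76, adjusted p = 0.58). For 6 of the 9 tested genes the 95% interval of this fit lay within -1 and 1, and this holds for 63.2% of all gene names tested. These intervals take in only the spread of these arrays, which may be technical, so a 2-fold change between cultures is not excluded. The 6 were S100a4, S100a6, S100a10, S100a13, S100a16 and S100b.

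The array also names 8 other S100 genes, of which 3 were tested and none was called (limma; none had an unadjusted p under 0.05). S100a3, a cuticle protein of hair, stood at -0.83 and -0.40 in control and -0.31 and 0.00 in 3MC+TPA cells (log2 change 0.46 ± 0.22, SE, adjusted p = 0.21). S100a2 and S100a14, both known from epithelia, had log2 changes of -0.02 and 0.07. S100a5, S100a7l2 (9130204L05Rik in the files), S100g and S100z were not well above background on any array, and S100a7a was on 1 array of each group.

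Along chromosome 3, 9 of the 10 genes lie in 1 stretch that runs from S100a1 to S100a10 with the epidermal differentiation genes between, and S100b lies on chromosome 10. Of the 86 other genes that the RefSeq gene table (GRCm38.p6) places in this stretch, 56 are named on the array and 23 were tested. Of these 6 were called lower and 1 higher, beside 8.47% lower and 7.3% higher of all gene names tested, with a median log2 change of -0.32. All 6 are of the small proline-rich family, whose genes encode cross-linked proteins of the cornified envelope, though Sprr2j-ps is named as a pseudogene. Sprr1a fell 34.0-fold, Sprr2f at least 20.8-fold, Sprr2a3 at least 28.9-fold, Sprr2g 4.30-fold, Sprr2j-ps 2.20-fold and Sprr2e 1.75-fold (adjusted p between 0.00021 and 0.046). Sprr2f and Sprr2a3 were not well above background in 3MC+TPA cells, so their adjusted p rests in part on unmeasured values. Other tested genes of this family were not called: Sprr2a1, Sprr2b and Sprr2k. Their log2 changes were -0.44, -0.42 and -0.11 (limma adjusted p = 0.11, 0.17 and 0.68). The Sprr2 genes are close copies of one another, so signal of 1 may include that of others. The gene that rose was Crct1, of the same epidermal cluster, at 5.56-fold (adjusted p = 0.0068). Ivl, the envelope protein involucrin, had the split of S100a8 between its control arrays (-4.18 and -0.52), was not well above background in 3MC+TPA cells, and did not pass (adjusted p = 0.053); it was named after its values were seen. Of 8 keratinocyte or epithelial markers, none of 5 tested was called (limma; 1, Sfn, had an unadjusted p under 0.05), and Krt18 and Cdh1 were not well above background on any array.

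**Figure D3:**
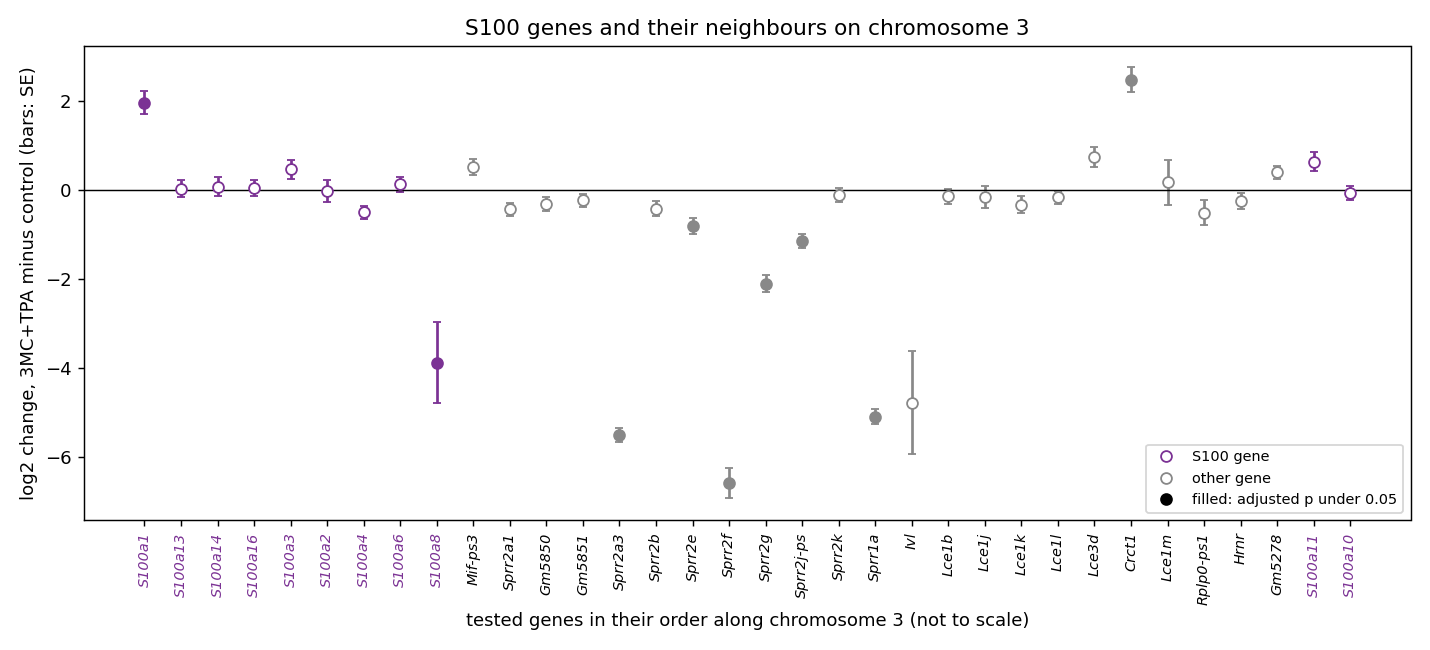
Log2 change, 3MC+TPA minus control, with its SE (y axis), of tested genes in their order along chromosome 3 (x axis, not to scale), with S100 genes in purple and called genes filled. S100a1 at 1.96 stands beside S100a13 at 0.03, S100a8 at -3.88 is the last S100 gene before the small proline-rich genes, of which 6 are filled below 0, and S100a11 and S100a10 close the row.

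Partners of the S100 proteins were read from lists by role. Over the partners, the other S100 genes and the neighbours together, 93 genes were tested, of which 10 were called higher and 9 lower. Of all gene names tested, 7.3% were called higher and 8.47% lower. Among 9 receptors that bind S100 proteins outside the cell, 6 were tested, 1 rose and 1 fell (median log2 change 0.03). Mcam, the adhesion molecule MCAM, which binds S100A8 and S100A9, rose 17.6-fold (adjusted p = 0.014), although its control arrays stood apart, at -1.61 and -3.47, against 1.51 and 1.69 on the 3MC+TPA arrays. Egfr, the EGF receptor, fell 2.15-fold (adjusted p = 0.023). Tlr4 stood at 1.62 and 1.67 in control and 1.84 and 1.37 in 3MC+TPA cells (log2 change -0.04 ± 0.21, SE, adjusted p = 0.92). Ager, the gene of RAGE, was not well above background on any array.

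Annexins, which several S100 proteins bind, were well above background on all arrays, together with Ahnak, a scaffold of the S100A10 and annexin A2 complex. Of these 8 genes, 1 rose and none fell (median 0.33). Anxa5, annexin A5, rose 1.72-fold (adjusted p = 0.037). Anxa2, the partner of S100A10, stood at 5.81 and 5.79 in control and 5.63 and 5.99 in 3MC+TPA cells (log2 change 0.01 ± 0.19, SE, adjusted p = 0.97), and Anxa1, a partner of S100A11, had a log2 change of -0.52 ± 0.15 (SE, adjusted p = 0.081). In the plasminogen system that this complex serves, 4 of the 5 genes listed were tested, 1 rose and 1 fell (median -0.21). Plaur, the urokinase receptor, rose 2.37-fold, while Plau, urokinase itself, fell 3.98-fold (adjusted p = 0.032 and 0.021). Plat, the tissue activator, had a log2 change of 0.13 ± 0.20 (SE, adjusted p = 0.69).

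Of 4 genes tied to release with S100A13, the exported Fgf1 and Il1a among them, 2 were tested. Fgf1 was not well above background in control cells (-6.93 and -6.75) and reached -2.83 and -2.70 in 3MC+TPA cells, at least 3.93-fold higher (adjusted p = 0.00042). Sphk1, sphingosine kinase 1, had a log2 change of -0.31 ± 0.16 (SE, adjusted p = 0.24), and Il1a was not well above background on any array. Among 23 cytoskeletal and intracellular targets, 18 were tested, 3 rose and none fell (median -0.02). Myh14, a non-muscle myosin heavy chain, rose 3.66-fold, Tpm2, a tropomyosin, 2.07-fold and Iqgap1, a cytoskeletal scaffold, 1.75-fold (adjusted p = 0.0028, 0.019 and 0.027). Myh9, the myosin heavy chain that S100A4 binds, had a log2 change of -0.03 ± 0.17 (SE, adjusted p = 0.92), and Cacybp, the partner of S100A6, -0.55 ± 0.18 (SE, adjusted p = 0.11). Of 35 other EF-hand proteins, 29 were tested, 2 rose and 1 fell (median 0.00). Lcp1, the actin bundler L-plastin of blood cells, was at least 6.90-fold higher and Gca, grancalcin, at least 4.87-fold higher, and Cetn2, a centrin, fell 2.01-fold (adjusted p = 0.00026, 0.039 and 0.024). Neither Lcp1 nor Gca was well above background in control cells. Their adjusted p, like that of Fgf1, rests in part on unmeasured control values. The lists were not chosen without knowledge of these data, and no list was tested as a set.

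**Figure D4:**
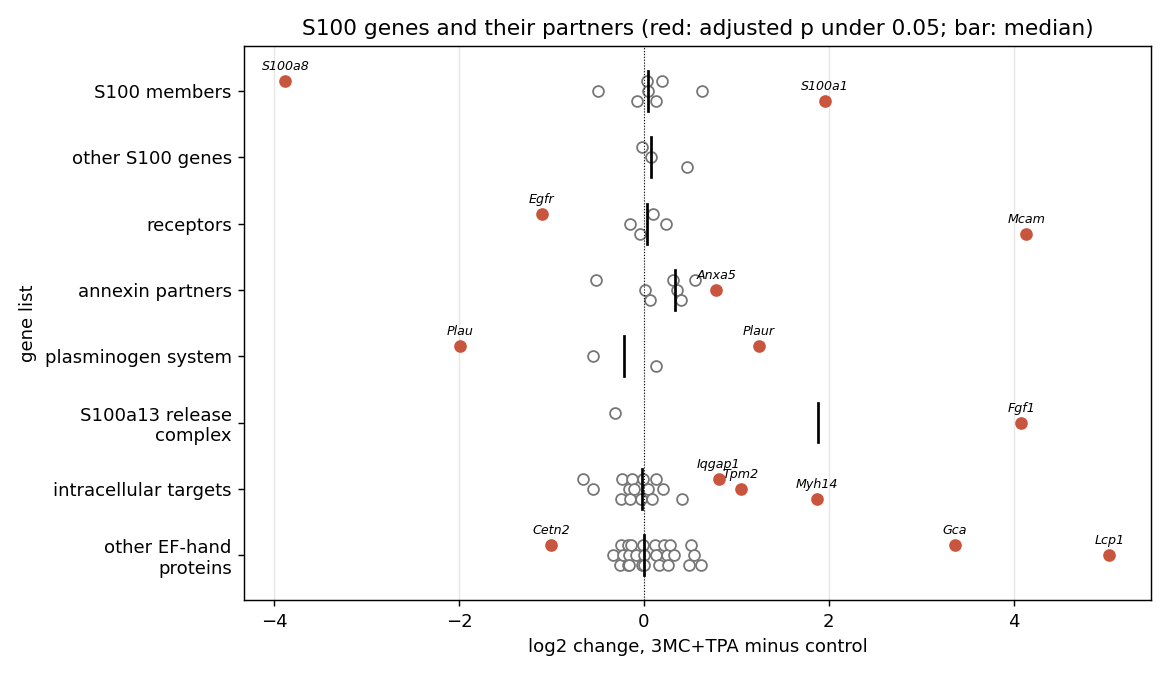
Log2 change, 3MC+TPA minus control (x axis), of tested genes in each of 8 lists (rows); red points have an adjusted p under 0.05 and the bar is the list's median. The medians of the lists plotted lie between -0.21 and 0.33 apart from that of the S100a13 release complex, 1.88, which rests on 2 genes, and single genes such as Lcp1, Mcam and Fgf1 stand out; values of genes with no measured level in a group, such as Fgf1 and S100a8, are of the fit and no fold.

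The sample's markers were read as a check of the label. All 9 fibroblast markers were well above background on the 4 arrays, with 1 called higher (Thy1, 7.85-fold) and 3 lower (Dcn 4.14-fold, Pdgfra 2.79-fold and Pdgfrb 2.04-fold). Among 8 glial or melanocyte markers, read beside S100b, 5 were tested and 1 rose, Mlana, a melanosome protein, 6.71-fold (adjusted p = 0.0012), while Gfap and Dct were not well above background on any array. The summed signal of these 8, in multiples of the array's 75th percentile, was 0.627 and 0.466 in control and 1.17 and 1.22 in 3MC+TPA cells. Most of the sum in 3MC+TPA cells, and its rise, was the signal of Mlana. Mlana stood at -2.72 and -2.93 in control and -0.11 and -0.05 in 3MC+TPA cells. The median log2 change of the 5 tested was -0.37. On each array between 32125 and 32512 of 61657 non-control spots were well above background, and the number of arrays limits the precision.

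**Figure D5:**
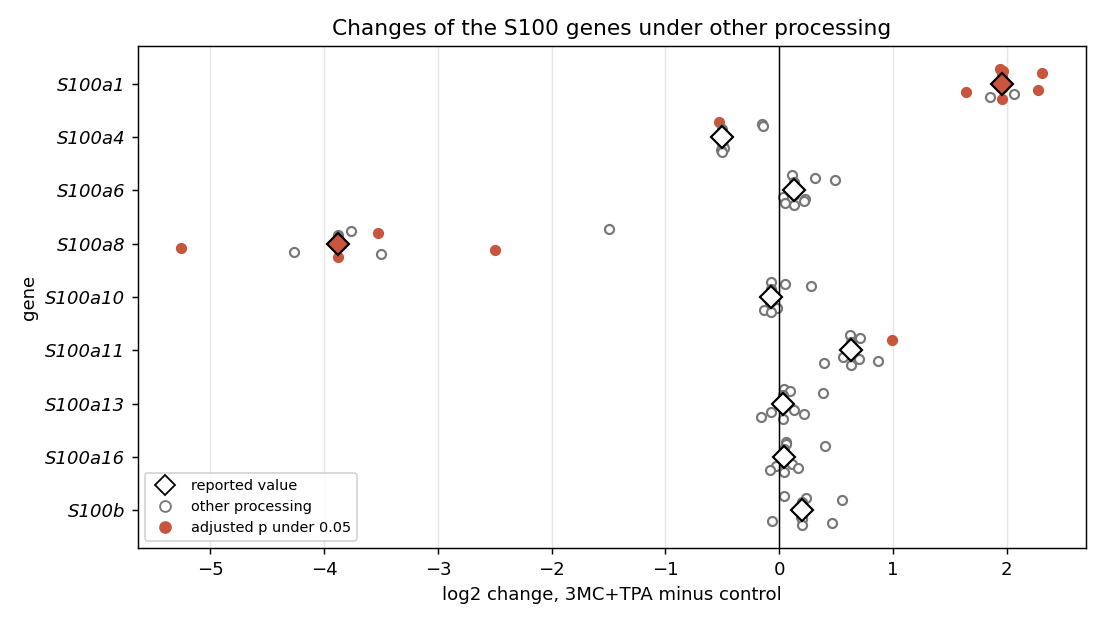
Log2 change of the tested S100 genes, 3MC+TPA minus control (x axis), as reported (diamonds) and under each other way of processing or with 1 array left out (circles); red marks an adjusted p under 0.05. S100a1 stays between 1.64 and 2.31, S100a8 spreads from -5.26 to -1.499, and S100a11 stays between 0.39 and 0.99.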

How the data were processed

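RNA of 2 control and 2 3MC+TPA samples was read on 4 arrays in 1 colour (Cy3). Processed intensity per spot came from Feature Extraction (Agilent, 10.7.3.1), which per the file headers removed spatial and multiplicative trends and set surrogates for dim spots. Mean and background intensity are given unprocessed in the deposited files. A deposited table of log2 values was made by the authors (GeneSpring GX 11.5, per the series' design text). Its values match the processed signals, in log2 and scaled to each array's 75th percentile, within 0.01 for at least 61302 of 61307 probes on each array; its genes are not centred and its column medians are -4.29, -4.31, -4.39 and -4.35. The rule for the members names these values. The same quantity computed from the scanner files is the main value, because it carries the flags, and the authors' table is an alternative.

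The 1319 control spots of each array and spots flagged as outliers (42, 20, 31 and 68) were left out, no spot was saturated, and spots of a probe were averaged. A gene name was read by its brightest probe over the 4 arrays. Groups were compared with limma 3.58.1 (lmFit, eBayes, 2-sided, no covariates) in R 4.3.3. The fit was tested on simulated data. All 4 arrays share 1 slide. Symbols follow RefSeq (GRCm38.p6), which held the accession of 28128 of 61307 probes; the array's own grid is of another build (mm9). The members, lists and rules were chosen with earlier results of these data known. A gene of the plasminogen list is not reported here and is left out of the counts and medians over lists. Named are all members, S100 genes well above background, and of each list up to 6 called genes with the largest change or else the 2 with the largest change; not every gene so selected is named, and partners with a known tie to a member (Tlr4, Ager, Anxa1, Anxa2, Plat, Sphk1, Il1a, Myh9, Cacybp) were named for that tie.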

Additional observations from a re-analysis of the deposited data

How the results depend on the processing

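Over all gene names tested, 3939 were called; the count was 6722 without scaling between arrays, where 79.1% of calls were higher against 46.3%, since the median of all gene names then moved from -0.01 to 0.34. It was 902 without a filter on dim probes, with more gene names tested, and 13 by the methods' t-test after adjustment (5725 unadjusted). It lay between 1131 and 3342 with 1 array left out.

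The 2 called S100 genes became 1 under quantile normalisation, in the authors' deposited values, in the mean of a gene's probes and in genes well above background on all 4 arrays, where S100a8 was not tested. They became 4 with an intensity trend in limma, under which 5234 of all gene names (21.0%) were called, 3 without scaling, and 0 without a filter (limma; 3 of 10 unadjusted) and by the methods' t-test (2 of 9 unadjusted). With 1 array left out the count lay between 0 (limma, without either 3MC+TPA array; 3 and 2 unadjusted) and 2. The 19 called partners and neighbours became 28 without scaling, 7 without a filter, 30 with an intensity trend, 0 by the methods' t-test (24 unadjusted) and 7 to 15 with 1 array left out. S100a1 was called under 11 of 15 alternatives and not without a filter (adjusted p = 0.083), by the methods' t-test (0.18), or without either 3MC+TPA array.

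Only genes that were not called changed sign: S100a10 (0.049 after quantile normalisation, 0.28 without scaling) and, with 1 array left out, S100a13 (-0.16 to 0.22), S100a16 (-0.084 to 0.17) and S100b (-0.065 to 0.46). Normexp correction adds an offset of 50, under which dim signals such as those of S100a8 (-1.499) lie closer together. Same-numbered arrays did not deviate together (correlation of deviations 0.00277 over 24918 gene names), and with the replicate block 3618 gene names were called, with the same 2 S100 genes.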

Other observations

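The control arrays differed for several of the genes described, in both directions, and these were picked out after their values were seen. S100a8 (-4.23 and -1.47 on control arrays 1 and 2) and Ivl (-4.18 and -0.52) were brighter on control array 2. Thy1 (2.99 and 0.87), Mcam (-1.61 and -3.47) and Camp (-2.99 and -4.70) were brighter on control array 1. The median gap between the control arrays, over gene names well above background on both, was 0.19 on the log2 scale.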
